A study of Mus musculus with 42 samples.

Results

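Mitosis genes other than the mitotic kinesins were described in single retinal progenitor cells (RPCs), the dividing cells from which all retinal neurons and Müller glia arise. The list held 55 genes in 10 subgroups, from cyclins to condensin, grouped by the role of their proteins in cell division. By gene symbol, 54 of the 55 were measured, out of 18194 genes measured on the arrays. Ccnb1, which encodes cyclin B1, had no probe set assigned to it alone. Its signals are not analysed here, and it enters only the promoter counts. Cenpe was kept in the list as a kinetochore gene, although its protein is itself a motor of the kinesin family. The study profiled 42 cells of CD-1 mice, each on 1 array: 11 cells at embryonic day 12.5 (E12.5), 4 at E13.5, 2 at E14.5, 1 at E15.5, 11 at E16.5 and 13 on the day of birth (P0). All mice belonged to the same outbred background with no treatment or targeted allele, and every cell carried the same label of retinal progenitor. The authors picked cells at random from dissociated retinas and kept as RPCs those whose arrays scored high for genes that went with Ccnd1, Fgf15, Sfrp2 and Crym, marking 6 of the 42 as transitional because a neuronal score was raised too. Whether members were among the genes of those scores was not tested.

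In a dividing cell, cyclin A and cyclin B bind Cdk1 and drive entry into mitosis, after which the duplicated chromosomes are compacted by condensin and topoisomerase II and attached to spindle microtubules through kinetochores. The spindle checkpoint holds back the anaphase-promoting complex (APC/C), a ubiquitin ligase, until every chromosome is attached; Cdc20 then activates it, securin is destroyed and the sister chromatids part. In the retina, nuclei of progenitors move with the cell cycle and divide at the outer surface, so cells taken at random from a retina are spread over all phases. Many genes of this group are transcribed from late S phase to mitosis under promoters with a short motif, the cell cycle genes homology region (CHR), often near CCAAT boxes.

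The promoters of 9 members are shown because members of the list were found together in the same cells, and because the CHR is the element the group is known for. Each run covers 110 bases before to 49 bases after the first base of a transcript (position 0), 160 bases in all, 5′ to 3′ on the strand of the gene, from RefSeq on build GRCm38.p6. Capitals mark the CHR letters TTTGAA or TTTAAA and the CCAAT letters, on either strand, so that CCAAT also appears as ATTGG; in Cdca8 the CHR and the last CCAAT match overlap.
Cdk1 (chr10:69352863-69353022, minus strand): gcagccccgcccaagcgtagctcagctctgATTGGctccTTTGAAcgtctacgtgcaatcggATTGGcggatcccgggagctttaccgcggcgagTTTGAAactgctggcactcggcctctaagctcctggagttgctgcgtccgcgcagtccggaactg
Ccnb2 (chr9:70421505-70421664, minus strand): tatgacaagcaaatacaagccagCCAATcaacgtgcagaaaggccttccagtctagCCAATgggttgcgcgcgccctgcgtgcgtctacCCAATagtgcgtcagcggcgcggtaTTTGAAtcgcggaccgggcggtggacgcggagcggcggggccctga
Cdc20 (chr4:118437294-118437453, minus strand): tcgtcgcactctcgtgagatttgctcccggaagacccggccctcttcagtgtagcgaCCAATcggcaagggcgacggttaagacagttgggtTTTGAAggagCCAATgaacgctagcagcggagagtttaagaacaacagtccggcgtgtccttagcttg
Plk1 (chr7:122159325-122159484, plus strand): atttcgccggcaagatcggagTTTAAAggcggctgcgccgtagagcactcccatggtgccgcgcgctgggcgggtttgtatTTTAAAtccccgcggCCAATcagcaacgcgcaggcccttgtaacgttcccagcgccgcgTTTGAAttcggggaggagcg
Bub1b (chr2:118598101-118598260, plus strand): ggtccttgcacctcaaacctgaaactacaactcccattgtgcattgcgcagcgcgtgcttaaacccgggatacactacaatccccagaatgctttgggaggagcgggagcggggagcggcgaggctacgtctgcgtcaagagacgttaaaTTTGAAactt
Cdca8 (chr4:124936868-124937027, minus strand): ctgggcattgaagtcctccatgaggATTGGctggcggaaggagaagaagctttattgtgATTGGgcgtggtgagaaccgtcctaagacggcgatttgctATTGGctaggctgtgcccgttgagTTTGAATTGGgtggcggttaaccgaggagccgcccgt
Cenpa (chr5:30666776-30666935, plus strand): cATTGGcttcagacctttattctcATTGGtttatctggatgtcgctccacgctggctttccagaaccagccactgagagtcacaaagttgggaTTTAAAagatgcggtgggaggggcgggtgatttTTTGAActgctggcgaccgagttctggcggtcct
Prc1 (chr7:80294341-80294500, plus strand): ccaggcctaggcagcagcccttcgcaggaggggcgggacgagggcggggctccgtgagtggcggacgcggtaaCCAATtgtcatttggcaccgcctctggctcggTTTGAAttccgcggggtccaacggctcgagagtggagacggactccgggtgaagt
Nuf2 (chr1:169531415-169531574, minus strand): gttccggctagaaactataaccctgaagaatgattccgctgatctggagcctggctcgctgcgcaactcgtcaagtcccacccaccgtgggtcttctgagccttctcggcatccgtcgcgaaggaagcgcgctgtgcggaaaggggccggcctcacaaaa
In Ccnb2, 3 CCAAT matches stood 33 and 33 bases apart, ahead of a CHR that began 4 bases after the transcript start. In Cdk1 and Cdc20 the nearest CHR began 15 and 18 bases before the start (positions -15 and -18), and in Plk1 the only TTTGAA in the run began 30 bases after it. Nuf2, a kinetochore gene, held neither kind of letters in the stretch shown, and Bub1b held a CHR at position 40 and no CCAAT in it.

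RefSeq windows of 300 bases (250 before and 50 from the start on) were found for 45 of the 55 listed genes. CHR letters occurred in 34 of the 45 (75.6%), against 28.2% of 17492 protein-coding genes. Within 60 bases of the start they occurred in 28 of the 45 (62.2%), against 8.75% of protein-coding genes; this narrower window was chosen after the positions had been seen. CCAAT letters occurred in 77.8% of the 45 and in 42.3% of protein-coding genes. The letters TTTGGCGC, TTTCCCGC, TTTGGCGG and TTTCCCGG, which E2F factors are known to bind, occurred in 3 of the 45 (6.67%) and in 4.71% of protein-coding genes. In the 39 DNA replication and S phase genes with a window the shares were the other way round, with E2F letters in 41% and CHR letters in 28.2%. Mitosis genes outside the list, other than kinesins, lay between (74 with a window). They had CHR letters in 44.6%, CHR letters near the start in 32.4% and E2F letters in 18.9%. The 12 mitotic kinesins with a window had CHR letters in 10, near the start in 9, and E2F letters in 2. The shares of the members thus describe the chosen list and not mitosis genes at large. Ccnb1, with CHR letters near the start, was not measured. Of the measured members, the 27 with CHR letters near the start were present in a median of 25 cells (10 to 35) and the 17 without in a median of 23 cells (13 to 37), so the ranges overlapped. A match of letters is a description of the sequence, and no binding was measured here.

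**Figure D1:**
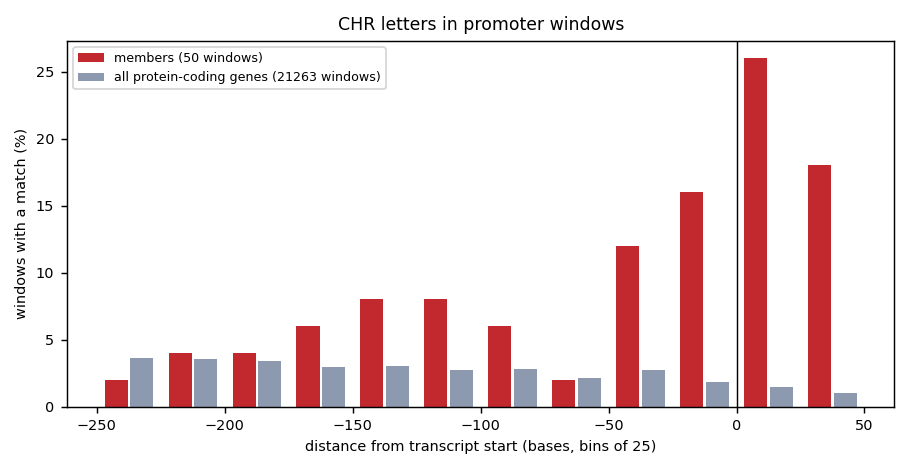
Percentage of promoter windows with the CHR letters TTTGAA or TTTAAA on either strand (vertical axis) in bins of 25 bases by distance from the transcript start (horizontal axis), for the 50 windows of members (red) and the 21263 windows of protein-coding genes (grey). Of the 56 matches in members, 36 (64.3%) began within 60 bases of the start, against 25.2% of the matches in protein-coding genes.

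A gene was called present in a cell at a signal of 1000 or more, the level that the authors took as background; signals are linear MAS 5.0 values scaled to the same target on every array. The cells held between 1386 and 5253 genes present, with a median of 3034. On 5 arrays of the 11 from E16.5 (those of J1, J2, J4, E8 and F1) the hybridization controls had a pattern of their own, with a deviation of 0.55 to 0.61 (SD of log2 signals) against 0.04 to 0.25 on the other 37, and these 5 arrays had more genes present (median 4103) than the other 6 of that stage (median 2115). E13.5 cell A6 and E16.5 cell F1 each had 6 of 25 genes of other tissues (keratins and muscle genes) present, and the other cells had 0 to 2. Of 8 lens markers, counted apart, E14.5 cell D7 had 5 and E13.5 cell A6 had 3, where the median cell had 0. Of 14 ganglion cell markers, E14.5 cell B1 and P0 cell B6 had 10 each and P0 cell C1 had 9, where the median cell had 2. Cells D7, B6 and C1 were not among those marked transitional. Of the progenitor markers, Pax6 and Ccnd1 were each present in 41 of 42 cells and Dkk3 in 40, while Hes1 was present in 8. Each stage was treated as 1 sample, since no animal or litter is named, so intervals below are 95% intervals for counting error only and there is no test between stages.

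The listed mitosis genes were widely present in these cells, but never all at once. They had been chosen with earlier results of these data known, so their wide presence partly reflects that choice. Over 54 genes and 42 cells, 1269 of 2268 values (56.0%, exact interval 53.9 to 58.0%) were present, against 17.0% of the values of all genes measured. Every measured member was present in at least 1 cell, as were 72.6% of all genes, and every member was present in 10 or more cells, as were 28.7% of all genes. A member was present in a median of 23.5 cells, and a gene of any kind in 3.0. Mitosis genes outside the list were narrower. Of 83 such genes other than kinesins, 35.5% of values were present (median 14 cells per gene), and of 13 mitotic kinesins 25.6% (median 11 cells). No member was present in all 42 cells. Anp32e was the widest (37 cells) and Hmmr the narrowest (10 cells); 15 members were present in 30 or more cells and 13 in 16 or fewer. Close to the level, between 700 and 1429, lay 167 of the 2268 values (7.36%).

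**Figure D2:**
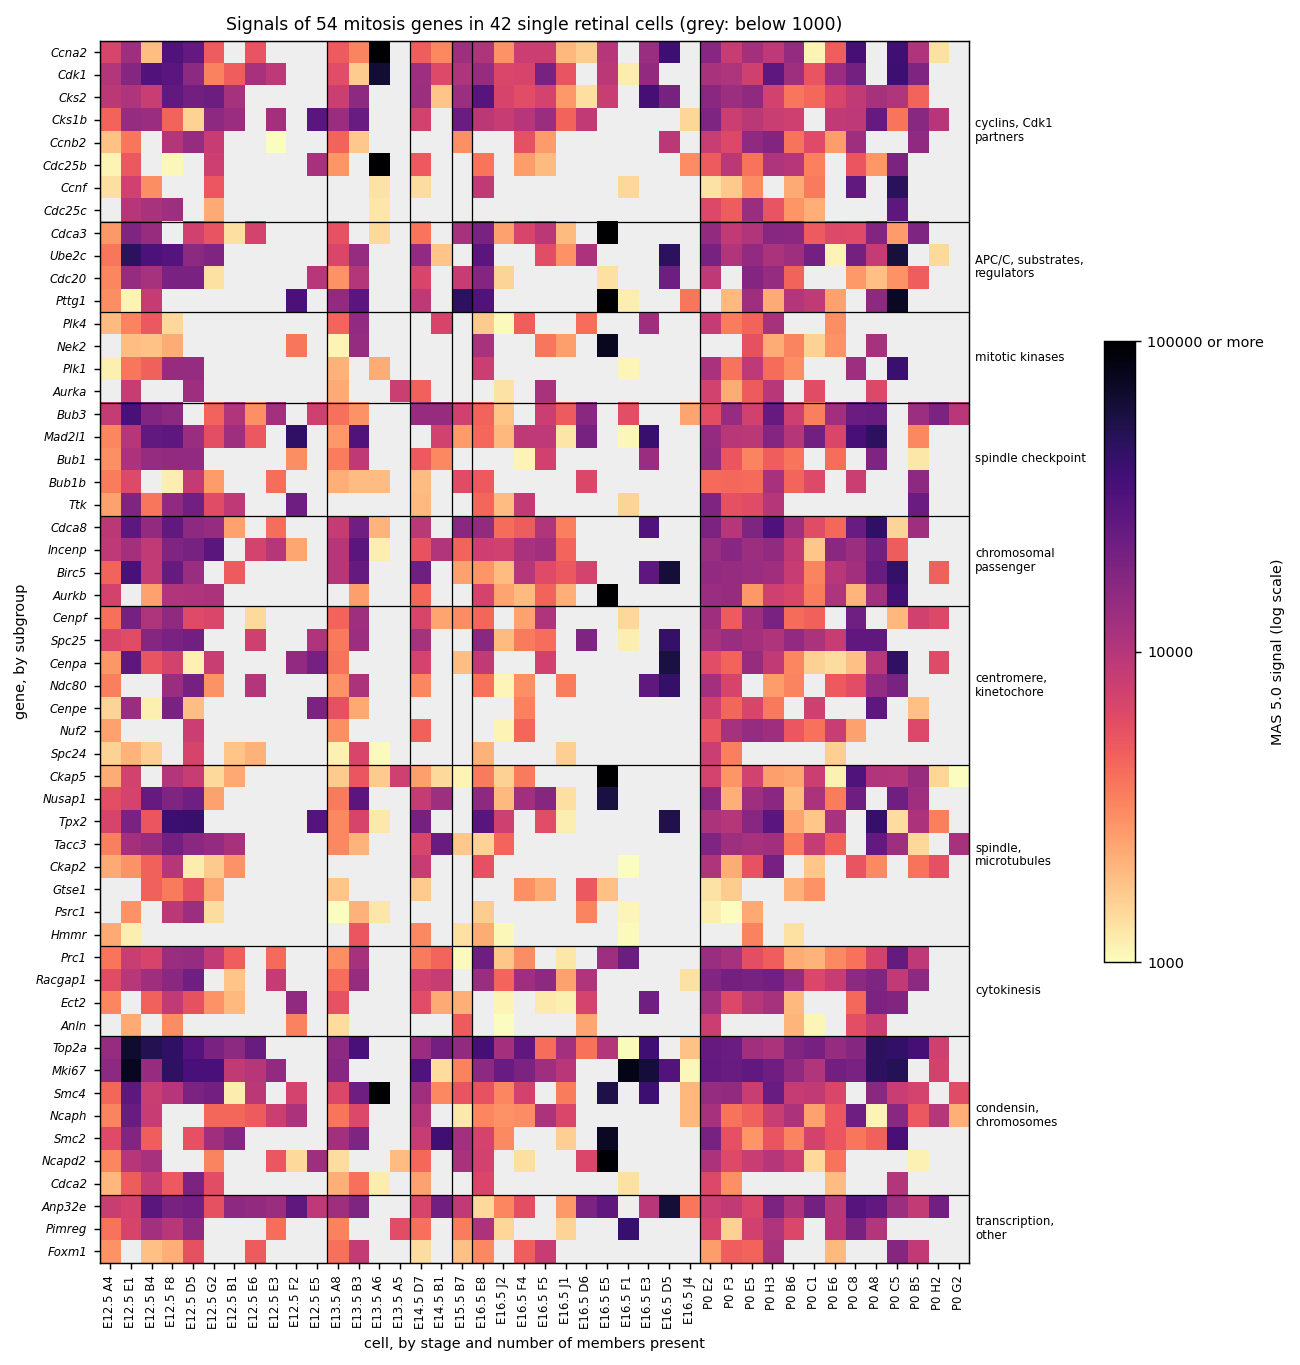
Signal of each of 54 members (rows, by subgroup and number of cells) in each of 42 cells (columns, by stage and number of members present), on a logarithmic colour scale that starts at 1000, with signals below it in grey. Columns range from cells with nearly every row filled (P0 E2, 51 of 54) to cells with almost none (E13.5 A5, 4 of 54), and both kinds occur at P0.

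Among cyclins and the partners of Cdk1, 58.9% of values were present (53.5 to 64.2%), but the genes ranged from 12 to 33 of 42 cells. Cdk1, the kinase itself, was present in 33 cells; its signal was 114 at the lowest, 10191 at the median and 30542 at the highest over the 11 E12.5 cells, 170, 6712 and 19828 at E16.5, and 248, 11436 and 38966 over the 13 P0 cells. The ranges of the 3 stages overlapped almost in full. Ccna2 (cyclin A2) was also present in 33 cells, and the small Cdk-binding subunits Cks1b and Cks2 in 31 and 32. Ccnb2, the B-type cyclin measured, was present in 21, which were 6 of the 11 E12.5 cells, 3 of the 11 E16.5 cells and 9 of the 13 P0 cells. Where Ccnb2 was absent its signal was at most 615 in any cell, and where it was present its median was 6254. The phosphatases on the list that activate Cdk1 were narrower than Cdk1, with Cdc25b present in 21 cells and Cdc25c in 12. Cdc25c was found in 4 of 11 E12.5 cells, in 7 of 13 P0 cells and in 0 of 11 E16.5 cells, where its highest signal was 882; a count of 0 of 11 allows a share of up to 28.5% (exact upper bound). Ccnf (cyclin F) was present in 15 cells.

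Of the genes around the APC/C, 57.7% of values were present (49.9 to 65.3%). Ube2c, the ubiquitin-conjugating enzyme that works with the complex, was present in 26 cells; its signals at E12.5 were 40.3 at the lowest, 3667 at the median and 46778 at the highest, at E16.5 16.6, 455 and 46943, and at P0 10.1, 11185 and 60324. The highest cells of all 3 stages were of like brightness, and the medians differed because 6 of 11, 5 of 11 and 11 of 13 cells had it present. Cdc20, the activator of the complex, was present in 23 cells (7 of 11, 4 of 11 and 8 of 13) and securin, encoded by Pttg1, in 20. Cdca3, a protein of mitotic entry that the APC/C degrades, was present in 28.

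The mitotic kinases were the narrowest subgroup, with 36.9% of values present (29.6 to 44.7%). Aurka, which acts at spindle poles, was present in 13 cells; its signals ran from 8.25 through a median of 167 to 12874 at E12.5, from 22.2 through 302 to 11429 at E16.5, and from 7.62 through 868 to 9781 at P0. Its median was thus below the level at every one of these stages, and a minority of cells had it. Plk1, the kinase of mitotic entry and cytokinesis, was present in 16 cells (5 of 11, 2 of 11 and 7 of 13), Plk4, which controls centriole duplication, in 17, and Nek2, a centrosome kinase, in 16. Plk4 alone of the 4 was found in as many E16.5 cells (5 of 11) as P0 cells (5 of 13).

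Spindle checkpoint genes differed among themselves. Bub3 was present in 33 cells and Mad2l1, which encodes Mad2, in 31, whereas the checkpoint kinases Bub1, Bub1b and Ttk were present in 21, 21 and 18. Bub3 binds several partners and is also used outside the checkpoint. Ttk went against the direction of most members between E12.5 and P0: 8 of 11 E12.5 cells had it (signals 18.3, 6045 and 22395 at the lowest, median and highest), as did 4 of 11 E16.5 cells (37.3, 234 and 8591) and 5 of 13 P0 cells (6.71, 371 and 22897). The brightest E12.5 and P0 cells were alike, and the P0 share minus the E12.5 share was -34.3 points, with a Newcombe interval of -61.4 to 4.91 that includes 0.

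The chromosomal passenger complex, which corrects attachments and then moves to the midzone, was with condensin the widest subgroup, each with 66.7% of values present. Its 4 members were found in 23 (Aurkb), 29 (Birc5, survivin), 30 (Incenp) and 30 (Cdca8, borealin) cells. Cdca8 had signals of 151 at the lowest, 9412 at the median and 27144 at the highest at E12.5, 62.9, 3408 and 31140 at E16.5, and 234, 12660 and 44222 at P0. Birc5 had no signal between 700 and 1429 in any cell: its highest absent signal was 208 and its lowest present signal 1903, so its cells fell plainly on either side of the level. Pairs of genes within the complex shared most of their cells, with a median Jaccard index (cells with both over cells with either) of 0.71 over 6 pairs, against 0.50 over all 1431 pairs of members.

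Centromere and kinetochore genes had 49% of values present (43.1 to 54.8%). Cenpf and Spc25 were each present in 26 cells, Cenpa, the histone variant that marks centromeres, in 25, Ndc80 in 22, Cenpe in 16, Nuf2 in 15 and Spc24 in 14. Ndc80, Nuf2, Spc24 and Spc25 form a single complex, yet their cells differed: Ndc80 and Nuf2 were both present in 12 cells, which were 54.5% of the Ndc80 cells and 80.0% of the Nuf2 cells. Spc24 and Spc25 were both present in 11 cells, 78.6% of the Spc24 cells and 42.3% of the Spc25 cells. Each of Ndc80, Nuf2 and Spc24 was read by a single probe set. Of 11 E12.5 cells 2 had Nuf2 (4.18 at the lowest, 244 at the median, 7870 at the highest), as did 2 of 11 E16.5 cells (10.7, 52 and 4328) and 9 of 13 P0 cells (4.59, 5148 and 14181). Its P0 share was 51 points above both earlier stages (interval 11.1 to 73.4 against either). Spc24 was instead most frequent at E12.5, with 6 of 11 E12.5 cells, 2 of 11 E16.5 cells and 3 of 13 P0 cells.

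Spindle and microtubule genes had 48.5% of values present (43.1 to 54%) and ran from Hmmr in 10 cells to Ckap5 in 30. Ckap5, a microtubule polymerase, was present in all 13 cells at P0 (1002 at the lowest, 7055 at the median and 31300 at the highest), in 6 of 11 at E12.5 (116, 1410 and 10239) and in 4 of 11 at E16.5 (62.4, 475 and 119317). The lowest P0 cell lay just over the level, and the highest signal of all was in E16.5 cell E5. Tacc3, which carries Ckap5 to the spindle, was present in 11 of 13 cells at P0, 7 of 11 at E12.5 and 2 of 11 at E16.5; its signals were 94.4, 11634 and 21157 at E12.5 and 72.5, 250 and 4395 at E16.5, and 210, 11587 and 25235 at P0. The E16.5 cells thus lay low and the E12.5 and P0 cells shared 1 range. Both E16.5 cells with Tacc3 were among the 5 arrays with shifted controls (2 of 5, against 0 of 6 on the others). Tpx2, the activator of Aurka, and Nusap1 were each present in 26 cells, Ckap2 in 19, Gtse1 in 14 and Psrc1 in 13; for Psrc1, 10 of the 42 signals lay between 700 and 1429, the most of any member.

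Of the 4 genes of cytokinesis, Prc1, which bundles midzone microtubules, was present in 30 cells, Racgap1, the GTPase-activating part of centralspindlin, in 29, its partner exchange factor Ect2 in 24 and anillin (Anln) in 12. Racgap1 signals ran 29.7, 6153 and 21886 at E12.5, 178, 2488 and 15589 at E16.5, and 65.7, 15612 and 21490 at P0, lowest, median and highest. Ect2 and Racgap1 were both present in 20 cells, 83.3% of the Ect2 cells and 69.0% of the Racgap1 cells. Anln had a median below the level at every stage with 11 or more cells.

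Condensin and chromosome genes ran from 16 to 35 cells. Top2a, topoisomerase II alpha, was present in 35 cells, with signals of 56.2, 19536 and 66422 at E12.5, 163, 10220 and 37850 at E16.5, and 195, 17536 and 46400 at P0. Only 1 of 42 Top2a signals lay between 700 and 1429. The proliferation antigen Mki67 and the condensin core subunit Smc4 were each present in 33 cells, and Smc2, the other core subunit, in 25, of which 24 also had Smc4. Ncaph, the condensin I subunit that closes the ring, was present in 31 cells and in all 13 at P0 (1112, 5220 and 22074), against 8 of 11 at E12.5 (114, 4355 and 23347) and 6 of 11 at E16.5 (70.4, 1992 and 11043). Ncapd2, of the same complex, was present in 23 cells and Cdca2, a phosphatase-targeting protein of anaphase chromosomes, in 16.

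The last 3 members have other roles. Anp32e, a chaperone of histone H2A.Z, was the widest member and was found in all 11 E12.5 cells, where its lowest signal was 5529, in 9 of 11 E16.5 cells and in 12 of 13 P0 cells. Foxm1, a forkhead factor that acts at promoters with CHR elements, was present in 19 cells (5 of 11, 3 of 11 and 7 of 13), with signals of 110, 781 and 5541 at E12.5, 87.3, 397 and 8307 at E16.5, and 50.0, 1964 and 17153 at P0. Foxm1 and Ccnb2 were both present in 14 cells, 73.7% of the Foxm1 cells and 66.7% of the Ccnb2 cells. Pimreg was present in 22 cells.

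Between stages, the members as a whole were most often present at P0 and least often at E16.5. The share of values present was 57.1% for E12.5 (53 to 61.1%), 42.9% for E16.5 (38.9 to 47%) and 67.4% for P0 (63.8 to 70.8%), while that of all genes was 15.3%, 16.8% and 18.1%. These intervals are too narrow, since genes of 1 cell are counted as if independent, and the numbers of members per cell overlapped widely between the stages. All 10 subgroups had their lowest share of the 3 stages at E16.5. Within E16.5, the 5 arrays with shifted controls had 49.3% of member values present and the other 6 had 37.7%, both below E12.5 and P0. For all genes the 2 sets had 22.6% and 11.97%, the first above and the second below the shares of E12.5 and P0. The 6 arrays thus had fewer genes of any kind present, and how far this lowered their share of members was not tested. Members lay a median of 18.2 points lower at E16.5 than at E12.5 (-18.2), where the median of all genes in 5 or more cells was 0. These comparisons share cells: the same 11 E12.5, 11 E16.5 and 13 P0 cells enter 2 comparisons each.

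For single members, a difference of 30 percentage points or more was taken as the size to name, and the same count was made over the 7685 genes present in 5 or more cells. From E12.5 to P0, 6 members lay at least that much higher (11.1% of 54), as did 11.1% of all such genes, and 2 lay that much lower (3.70%), as did 3.59%. The members therefore showed no more differences of that size between E12.5 and P0 than genes at large. The 6 were Nuf2, Ckap5 (45.5 points, 12.2 to 72.0), Aurkb (31.5), Ube2c, Birc5 and Tpx2 (30.1 each), and the 2 were Ttk and Spc24 (-31.5). The intervals of all but Nuf2 and Ckap5 included 0.

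At E16.5 the counts differed from those over all genes present in 5 or more cells, but the comparison is uneven. Every member was present in 10 or more cells, and a gene in few cells can less easily differ by 30 points. Members were also present together in the same cells, so they are not independent counts. Compared with E12.5, 10 members (18.5%) lay 30 points or more lower, against 4.79% of genes, and 0 lay as much higher, against 4.62%. Cenpa, Cenpe, Ckap2 and Tacc3 were 45.5 points lower (-45.5), and Cdc25c, Ttk, Bub1b, Incenp, Spc24 and Cdca2 36.4 points lower (-36.4). Without the 5 arrays with shifted controls 21 members lay that much lower and 3 that much higher, and at a level of 500 in place of 1000 the count lower was 5. From E16.5 to P0, 22 members (40.7%) lay 30 points or more higher, against 11.8% of genes, and 0 lay as much lower, against 4.01%. Tacc3 differed most (66.4 points, 26.5 to 83.5), then Ckap5 (63.6, 27.3 to 84.8), Cenpa (57.3, 17.6 to 78.1) and Cdc25c (53.8, 18.1 to 76.8). The 6 E16.5 arrays with ordinary controls lacked 9 members altogether, of which 8 were present on 1 or more of the other 5 arrays. Those 5 arrays had more genes of any kind present (median 4103 against 2115). The matching count over all genes is not given, so this split need not be particular to members. The E16.5 cells also included 3 of the 6 cells marked transitional (D5, E5 and F1); without the 6, the E16.5 share was 48.4%. Number of genes, control pattern and class of cell moved with this stage, and their part in the difference was not tested.

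**Figure D3:**
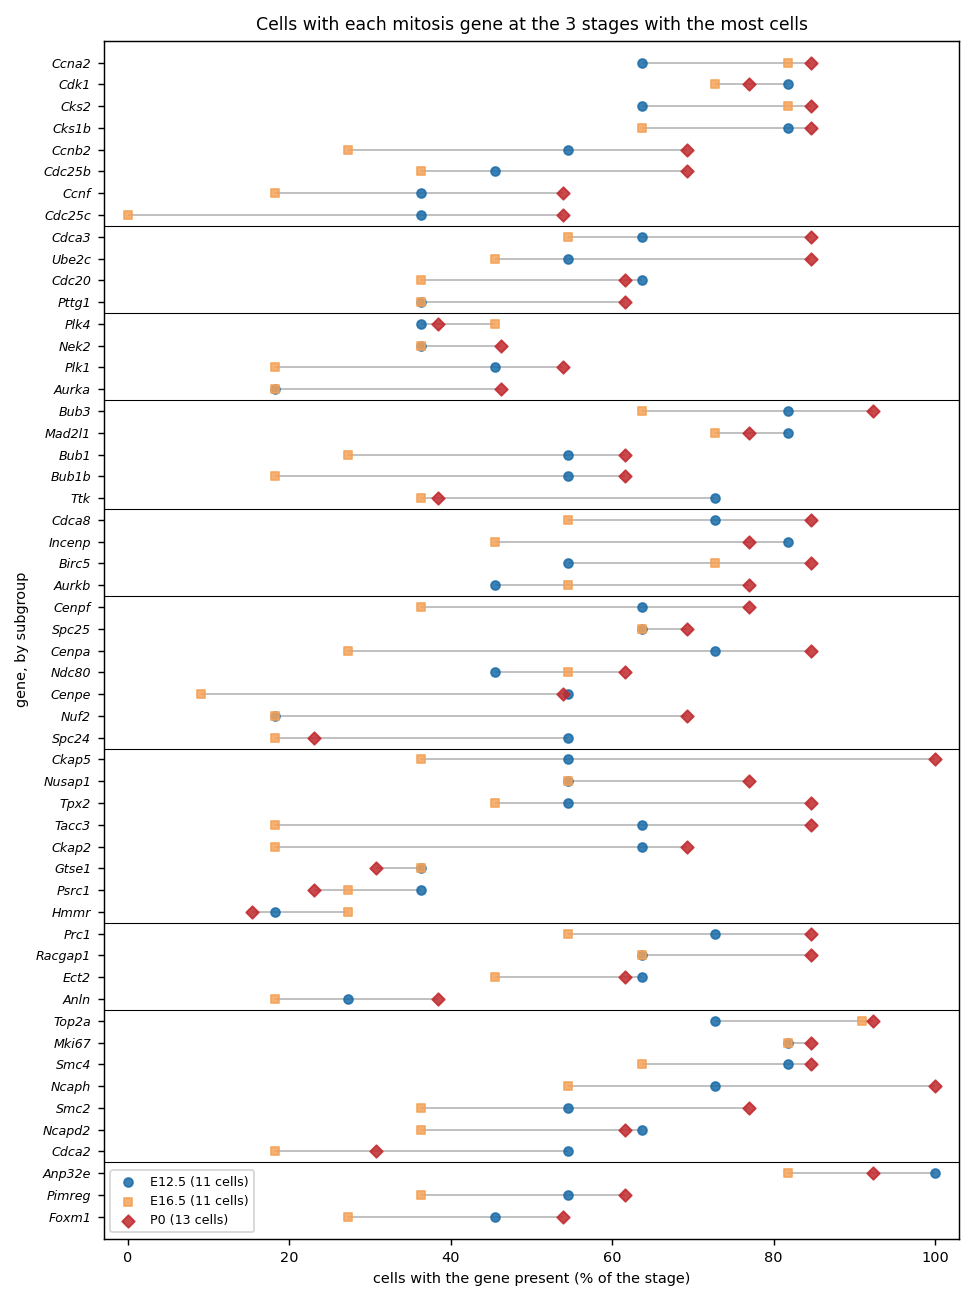
Percentage of cells in which each member was present (horizontal axis) at E12.5 (11 cells, circles), E16.5 (11 cells, squares) and P0 (13 cells, diamonds), by gene and subgroup (vertical axis), with a grey line from the lowest to the highest stage. Ckap5 and Ncaph reach 100% at P0, Anp32e reaches 100% at E12.5, and Cdc25c lies at 0 at E16.5.

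Single cells ran from 4 to 51 mitosis genes present, and the numbers were widely spread at every stage with 4 or more cells. The number present was 10 at the lowest, 37 at the median and 48 at the highest at E12.5, 4, 27 and 48 at E13.5, 10, 18 and 45 at E16.5, and 5, 38 and 51 at P0. The E14.5 cells had 21 and 44 and the E15.5 cell 31. Over all cells the median was 33, and 13 cells had 41 or more members, while 14 had 20 or fewer. Cells with 41 or more were 5 of 11 E12.5 cells, 1 of 11 E16.5 cells and 5 of 13 P0 cells, and cells with 20 or fewer were 4 of 11, 6 of 11 and 2 of 13. At E12.5 no cell lay between 22 and 37. P0 cell E2 lacked only Pttg1, Nek2 and Hmmr, and P0 cell F3 lacked Cdc20, Nek2, Hmmr and Anln. At the other end, E13.5 cell A5 had Aurka, Ckap5, Ncapd2 and Pimreg, and P0 cell G2 had Bub3, Ckap5, Tacc3, Smc4 and Ncaph.

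**Figure D4:**
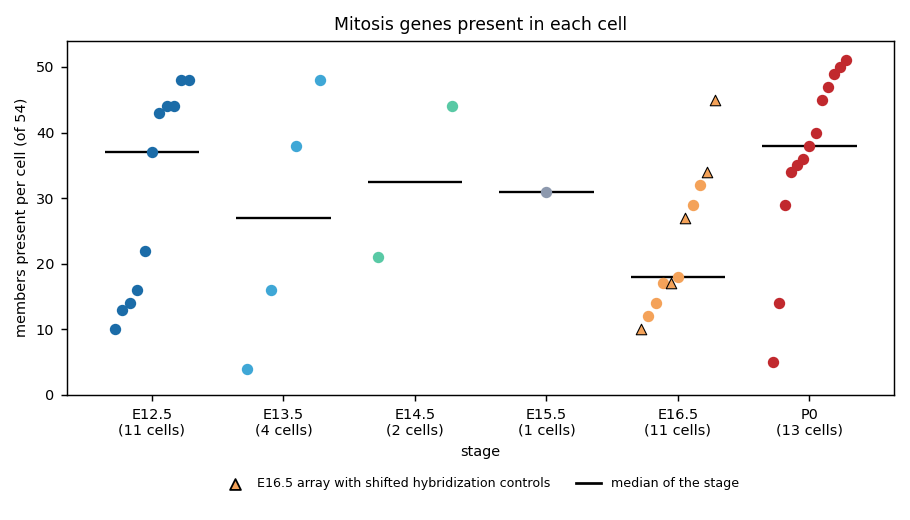
Number of the 54 members present in each cell (vertical axis) by stage (horizontal axis), 1 point per cell, with a black line at the median of the stage and triangles for the 5 E16.5 arrays with shifted hybridization controls. The medians of the stages with 11 or more cells are 37 (E12.5), 18 (E16.5) and 38 (P0), and cells below 15 and above 40 are found at all 3.

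The presence of 1 member went with that of the others. For each of the 54 members, cells that had it held more of the other 53 members, by the median, than cells that lacked it, with a median gap of 22.75 genes. The gap was greatest for Nusap1 (40.5 against 14 others) and smallest for Anln (37 against 28). The same gap is not given for genes outside the list. Cells with more genes of any kind present also held more members (r = 0.42), so part of the gap need not be particular to members. Nuf2 was never present with fewer than 28 others, while Bub3, Smc4 and Ncaph were found with as few as 4 and Aurka, Ckap5, Ncapd2 and Pimreg, all in E13.5 cell A5, with 3. Top2a was absent only from cells with at most 16 others, and Cks2 only from cells with at most 17. The pairs that shared the largest part of their cells were Cks2 with Top2a (31 cells with both, Jaccard index 0.86) and Ccna2 with Cks2 (30 cells, 0.86). Genes present in many cells reach high values of this index more easily.

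Pairs named for their joint function shared their cells to different degrees. Cdk1 was present in 20 of the 21 Ccnb2 cells (95.2%), and these were 60.6% of the Cdk1 cells. Tpx2 was present in 12 of the 13 Aurka cells (92.3%), which were 46.2% of the Tpx2 cells, and Birc5 in 21 of the 23 Aurkb cells (91.3%, and 72.4% of the Birc5 cells). In these 3 pairs the narrower gene was nearly nested in the wider. Bub1 and Bub1b, both present in 21 cells, shared 13 (61.9% of each). Cdc20 and Ube2c shared 18 cells (78.3% and 69.2%), Cdc20 and Pttg1 14 (60.9% and 70.0%), and Ect2 and Pttg1 12 (50% and 60%). Cks1b and Cks2 shared 27 (87.1% and 84.4%).

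The number of members per cell ran with the other genes of mitosis and much less with those of other phases. Over the 42 cells, which share stages and differ in the number of genes present, it correlated with the number of 13 mitotic kinesins present (Pearson r = 0.87, Spearman rho = 0.88) and with the number of 83 other mitosis genes (r = 0.86, rho = 0.87). With 47 DNA replication and S phase genes r was 0.25 (rho = 0.22), with 8 G1 genes 0.29 (0.26), with 11 genes of cell cycle exit 0.40 (0.44) and with all genes present 0.42 (0.46). Within stages, r with the kinesins was 0.96 for the 11 E12.5 cells, 0.81 for the 11 E16.5 cells and 0.85 for the 13 P0 cells, and r with the replication genes was 0.21, 0.46 and -0.37. The value of r with replication genes was thus weaker and not of the same sign at all stages, and r with kinesins was positive at each. With 11 to 13 cells per stage, no difference between stages in the relation with replication genes is drawn from this. These are descriptions of the same cells with no test.

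The widest genes of the other lists give the setting. Among kinesins these were Kif22 (26 cells), Kif20a (21), Kif4 (20) and Kif23 (19). Among the other mitosis genes they were the APC/C subunits Anapc5 (41) and Anapc1 (34), the kinase Pbk (32) and Ncaph2 of condensin II (31). Pcna, the sliding clamp of DNA polymerase, was present in 37 cells, the helicase subunits Mcm7 and Mcm2 in 35 and 34 and the histone mRNA-binding gene Slbp in 34. Of the G1 genes, Ccnd1 and Cdk4 were each present in 41 cells, Cdk6 in 23 and Cdk2 in 21, and of the exit genes Btg1 in 33, Cdkn1b (p27Kip1) in 25, Cdkn2d in 18 and Btg2 and Rb1 in 17 each.

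Some cells held many genes of 1 phase and few of the other. P0 cells E5 and H3 had 49 and 47 members and 14 and 11 of 47 replication genes, whereas P0 cells G2 and H2 had 5 and 14 members and 34 and 33 replication genes. Numbers of genes present were close in H3 (3062), H2 (3063) and G2 (2915) and higher in E5 (4100). Ccnb2 had signals of 15323 in E5 and 17498 in H3, and of 17.3 in G2 and 11.9 in H2, and Cdc20 of 17260, 14091, 138 and 107 in the same order. Mcm2 ran the other way, with 62.8 and 79.7 in E5 and H3 and 32436 and 21262 in G2 and H2, as did Mcm7 (176, 171, 38878 and 12190). Ccnd1, with 17985, 37124, 37892 and 54268, was present in all 4. Both kinds of genes could also be present together: P0 cell F3 had 50 members and 38 replication genes, and E12.5 cell A4 had 48 and 41. E12.5 cell B1 had 40 replication genes and 22 members, fewer members than the E12.5 median of 37. These cells were singled out after their values had been seen.

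**Figure D5:**
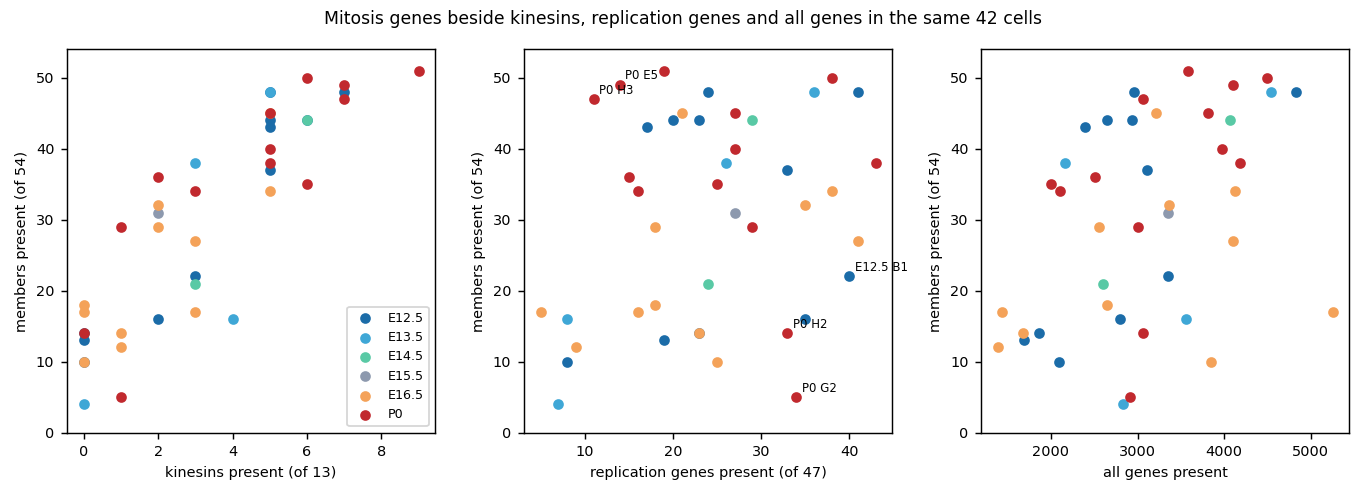
Number of members present in each of 42 cells (vertical axes, of 54) against the number of mitotic kinesins present (left, of 13), of DNA replication and S phase genes present (middle, of 47) and of all genes present (right), 1 point per cell, coloured by stage. Points follow a rising band on the left (r = 0.87), while in the middle cells P0 E5 and P0 H3 lie at the upper left and P0 G2 and P0 H2 at the lower right (r = 0.25).

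Of 7631 other genes present in 5 or more cells, the 15 most like the members were ranked by Pearson r of log2 signal, with signals below 1000 set to 1000, with the number of members present over 42 cells. Arhgap11a came first (r = 0.72, present in 22 cells), followed by the kinesins Kif23 and Kif22 (both 0.67), Ckap2l (0.66), the Aurka cofactor gene Bora (0.64), the condensin subunit Ncapg (0.63) and Kif2c (0.60). Then came Pak4 (0.59), Aspm (0.58), Rhno1 (0.58), Kpna2 (0.56), Spag5 (0.56), Pbk (0.56), Rangap1 (0.55) and Nup62 (0.55). Of the 15, 10 were in the kinesin or other mitosis lists; the other 5, Pak4, Rhno1, Kpna2, Rangap1 and Nup62, were in none. The median r of the 7631 genes was 0.04. For the members, each set against the number of other members, r ran from 0.14 (Nek2) to 0.77 (Cdca8) with a median of 0.49.

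Several measurements bear on how far signals and calls can be read. Where a member was present its signal depended on the cell: the median signal of the members present ran from 1181 in E16.5 cell F1 to 54599 in E16.5 cell E5, and it was lower in cells with more genes present (rho = -0.80 over 42 cells). For 27 of the 54 members the highest signal of all lay in 1 of the 6 transitional cells, as with Smc4 at 277686 and Ccna2 at 177436 in E13.5 cell A6 and Pttg1 at 177827 in E16.5 cell E5. Signals were therefore compared within a gene only, and lists by presence. The members were read by 126 probe sets, 1 for each of 15 members and 2 to 5 for each of the other 39. In 16 of those 39 a probe set reached the level in no cell, and in 15 the best probe set alone gave all the cells. For Smc2, 1 of 5 probe sets gave 25 cells and the others 0 to 2.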

How the data were processed

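Retinas of CD-1 mice were dissociated and the cDNA of each of 42 single cells was amplified by 35 cycles of PCR, so signals need not be proportional to transcript number. The deposited values are intensity signals that the authors computed with MAS 5.0 on Affymetrix mouse 430 2.0 arrays and scaled to a target of 500. The trimmed mean of every array lay between 500.002 and 500.023 here. Of 45101 probe sets, the platform annotation gave 34958 a single gene symbol, and 932 with several were left out. The value of a gene was its highest signal, and present meant 1000 or more. The number of genes present stands in for depth, which arrays do not give.

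The labels name no animal or litter, so each stage was 1 sample, no test was run and no p-value computed. Shares have exact (Clopper-Pearson) and differences Newcombe 95% intervals, checked on simulated data. Promoter windows and names came from RefSeq tables of GRCm38.p6. Python 3.11.15, numpy 2.4.6, pandas 2.3.3 and scipy 1.17.1 were used. Named genes were all measured members, the 4 widest genes of each other list and the 15 genes most like the members. The members and lists were chosen with earlier results of these data known. Alternatives were 3 other levels, 3 ways of joining probe sets, the 3000 highest genes of each cell as present, and leaving out the 5 E16.5 arrays or the 6 transitional cells.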

Additional observations from a re-analysis of the deposited data

Results flagged for a closer look

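Among 18 counts examined over the 4 cells of E13.5, the only stage with 4 to 10 cells, 3 had a cell far from the other 3. E13.5 cell A5 had 0 of the 8 cyclins and Cdk1 partners present, where the others had 5 to 6. E13.5 cell A6 had 1 of the 11 exit genes present, where the others had 5 each, and 6 of 25 genes of other tissues, where the others had 0. For continuous values, chance alone marks about 1 in 20 such groups. That rate need not hold for small counts with ties. Where the other 3 cells are equal, as for the exit genes and the genes of other tissues, any differing count is marked.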

How the results depend on the processing

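The order of the 3 larger stages, P0 above E12.5 above E16.5 in the share of member values present, held under every alternative run, but the shares moved with the level. In the order all cells, E12.5, E16.5 and P0 the shares were 48.5%, 51.2%, 33.3% and 61.8% at a level of 2000, 35.2%, 38.4%, 22.6% and 47.4% at 5000, and 39.7%, 41.1%, 29.8% and 50.9% with the median of the probe sets of a gene. At a level of 500 they were 62.7% over all cells, 54.4% for E16.5 and 71.4% for P0. Without probe sets that can cross-hybridize the share was 53.7% over all cells, without the 6 transitional cells 59.3% and 48.4% for E16.5, and without the 5 E16.5 arrays 37.7% for E16.5. The median number of members per cell was 16 at 5000 and 22 with the median of probe sets, and a member was present in a median of 31% and 38.1% of cells.

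Counts of members 30 points or more apart were small and moved. They are given here without the matching counts over all genes, so they describe the members only. At P0 above E12.5 there were 3 at 5000 and 3 without the transitional cells, and below it 1 at 2000, 0 at 5000 and 1 without the transitional cells. At E16.5 above E12.5 there were 3 without the 5 arrays and 1 without the transitional cells, and below it 5 at 500, 6 with the median of probe sets and 21 without the 5 arrays. At P0 below E16.5 there was 1 with the 3000 highest genes of each cell and 1 without the 5 arrays, while above it the count stayed between 15 and 28. The correlation of members with replication genes was -0.14 at 5000 and 0.024 with the 3000 highest genes, and that with G1 genes -0.13 and 0.064, so neither has a settled sign. Mitotic kinases were the narrowest subgroup under every alternative run; the order of single members followed the reported one less closely with the median of probe sets (Spearman rho 0.42) than under the others (0.91 or more). The cause of these shifts was not tested. No paired analysis was possible because no test was run and no animal or litter is named that would tie cells of different stages to each other.

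Limits are the 1 cell per array, the unnamed animals, amplification by PCR, and the choice of the highest probe set, which raises presence for genes with several. A signal below 1000 does not show that a transcript was missing from a cell, and 11 or 13 cells per stage leave wide intervals for any single member.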
